A study of Mus musculus with 8 samples.

Results

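Insulin signalling in the liver was followed here through 9 genes measured in whole liver of 2 mouse strains, KKAy and C57BL/6J, each at the ages of 4 and 11 weeks. The genes were taken by name: of 10 genes asked for (Insr, Irs1, Irs2, Akt1, Akt2, Foxo1, Pik3r1, Pik3ca, Ptpn1 and Gsk3b), 9 were found as the gene name of at least 1 array probe, and Irs2 was not analysed here. They were read by 19 probes out of 41174, 8 of the 9 genes had more than 1 probe, and all 19 passed the filter on dim signal that kept 25320 probes. The rule itself used no measured value, but the genes were chosen with earlier results of these data known.

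The study set the liver of a diabetic mouse strain against that of a normal one. KKAy mice, labelled as having diabetes, and C57BL/6J mice, labelled as normal, were each sampled at 4 and at 11 weeks of age, with 2 arrays in each of the 4 groups. All mice ate standard chow and had fasted for 13.5 hours overnight, and total liver RNA was labelled with Cy3 for single-colour Agilent arrays. KKAy mice carry the yellow agouti allele on the KK background, while C57BL/6J is an unrelated inbred strain, so a strain difference here covers every locus at which the strains differ. The sex of the mice, and whether the 2 RNA samples of a group came from separate animals, are not stated in the labels. P-values thus reflect the spread between the samples at hand, and that spread may be technical.

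Insulin binding activates the insulin receptor, a tyrosine kinase on the hepatocyte surface, which phosphorylates the docking proteins Irs1 and Irs2. These recruit PI3-kinase, a dimer of a regulatory subunit such as the Pik3r1 product and a catalytic subunit such as the Pik3ca product, and its lipid product leads to activation of the kinases Akt1 and Akt2. Akt inhibits Gsk3b, a kinase that restrains glycogen synthesis, and keeps the transcription factor Foxo1 out of the nucleus, where Foxo1 would otherwise drive genes of glucose output. Ptpn1, a tyrosine phosphatase, removes the activating phosphates from the receptor. Much of this control is by phosphorylation, which arrays of RNA do not read.

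Signal is given throughout as log2 relative to the 75th percentile of the array, so that 0 is the signal at that percentile and a difference of 1 is a doubling. The 75th percentile lay between 491.6 and 1241 signal units, 56.3 to 66.7% of spots per array were well above background, and kept probes had a median SD within groups of 0.129 to 0.223. Replicate 2 had the lower 75th percentile in each of the 4 groups. All 10 hepatocyte markers examined were well above background on all 8 arrays. At 4 weeks 0 of them were higher and 1 lower in KKAy, and at 11 weeks 1 was higher and 4 lower, among them Apoa1 by 1.04 and Cps1 by 0.92. All 6 markers of dividing cells were lower at 11 than at 4 weeks in both strains, and the part of these shifts in the results was not tested. Markers of Kupffer cells and macrophages were lower in KKAy than in C57BL/6J for 7 of 10 at 4 weeks and 6 of 10 at 11 weeks, and their summed linear signal relative to the 75th percentile was 156 and 184 in C57BL/6J at 4 weeks, 65.5 and 70.9 at 11 weeks, 61.6 and 68.1 in KKAy at 4 weeks, and 38.2 and 39.5 at 11 weeks. Of 10 lymphocyte markers, 7 and 6 were lower in KKAy at 4 and 11 weeks and 0 were higher. Only 6 of these 10 were well above background on all 8 arrays, and Gzma was so on no KKAy array. Of 10 stellate and fibroblast markers, 3 were lower and 0 higher in KKAy at 4 weeks. At 11 weeks 7 were lower and 1, Col3a1, was higher, by 0.53. The summed signal ran from 23.9 in KKAy at 11 weeks to 67.2 in C57BL/6J at 4 weeks. Of all genes tested, 8.69% were called lower and 6.3% higher in KKAy at 4 weeks, and 11.5% and 9.69% at 11 weeks. In whole liver, fewer cells of a type and less RNA per cell cannot be told apart.

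Pik3r1, which encodes the p85-alpha regulatory subunit of PI3-kinase, was the 1 gene of the 9 whose brightest probe differed between the strains at an adjusted p under 0.05, and it was higher in KKAy at both ages. At 4 weeks 1 of 9 genes was higher in KKAy and 0 were lower, where 15% of all genes tested passed in limma, 6.3% higher and 8.69% lower. At 11 weeks it was again 1 higher and 0 lower, where 21.2% of all genes passed, 9.69% higher and 11.5% lower. The median strain difference over the 9 genes was -0.06 at 4 weeks and -0.04 at 11 weeks, beside 0.02 and -0.01 over all genes. The median size of the difference, sign aside, was 0.15 and 0.22 for the 9 genes, beside 0.24 and 0.31 for all genes. The share called, 1 gene of 9, was no larger than that of all genes at either age.

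**Figure D1:**
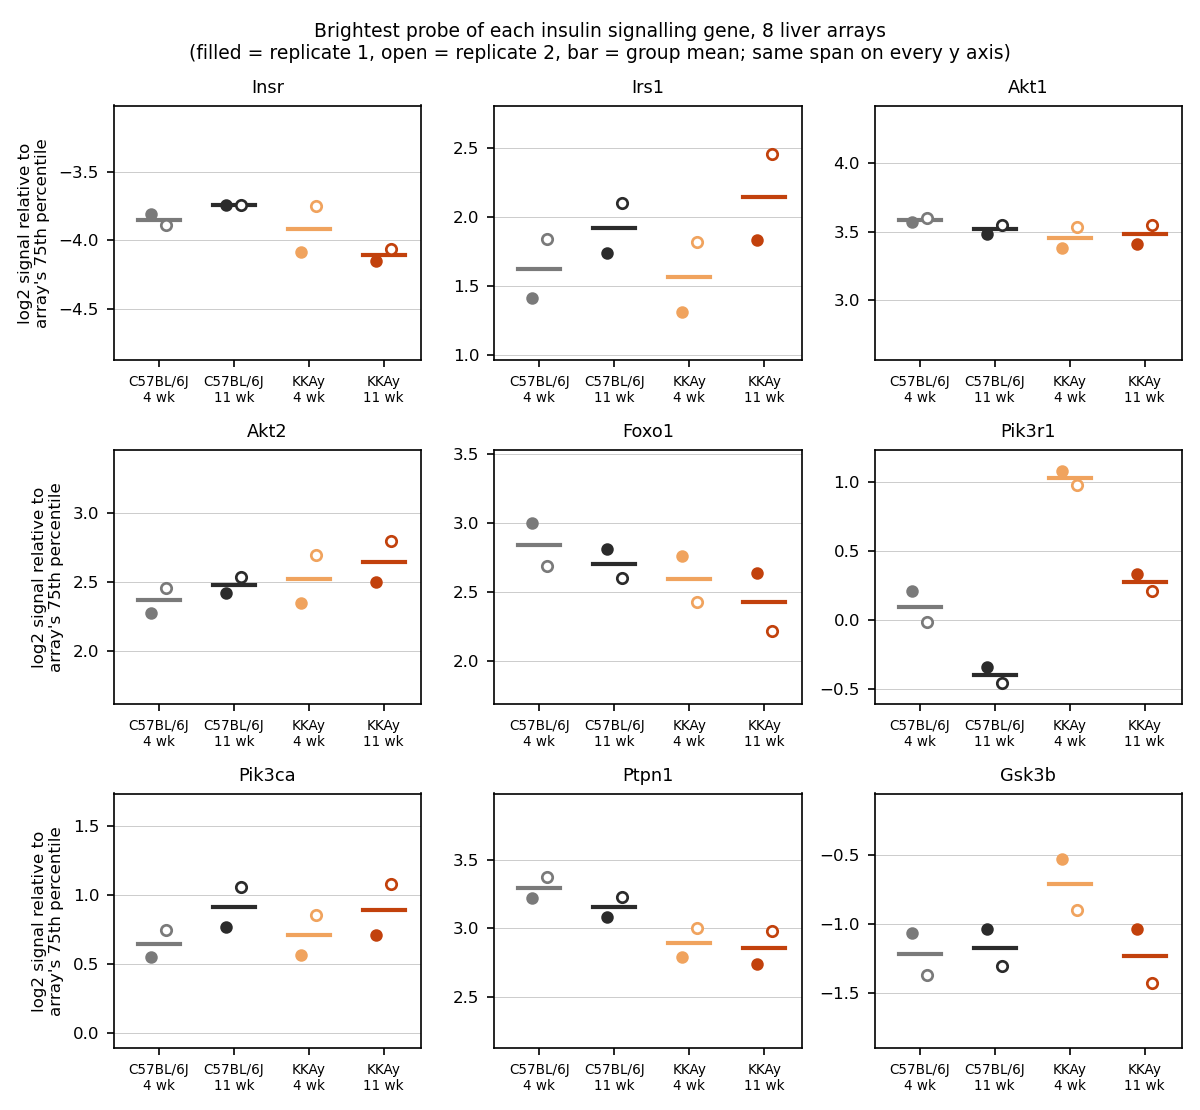
Brightest probe of each of the 9 insulin signalling genes on the 8 arrays: the y axis is log2 signal relative to the array's 75th percentile, with the same span in every panel, filled points are replicate 1, open points replicate 2 and bars group means. Pik3r1 lies between 0.98 and 1.08 in KKAy at 4 weeks and between -0.02 and 0.21 in C57BL/6J at 4 weeks, while Akt1 stays between 3.38 and 3.6 on all arrays.

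Counted by probe, 3 of 19 were higher and 0 lower in KKAy at 4 weeks (14.5% of all probes passed), and 3 were higher and 1 lower at 11 weeks (21.1% of all probes passed). Arrays with the same replicate number deviated together in all groups, so each comparison was also fitted with the replicate number as a block. In that blocked fit 2 genes were higher and 2 lower in KKAy at 4 weeks, where 43% of all genes passed, and 1 was higher and 3 lower at 11 weeks, where 54.5% passed. At 4 weeks the 2 higher genes were Pik3r1 and Gsk3b and the 2 lower genes Foxo1 and Ptpn1. At 11 weeks Pik3r1 was higher, and Insr, Foxo1 and Ptpn1 were lower.

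**Figure D2:**
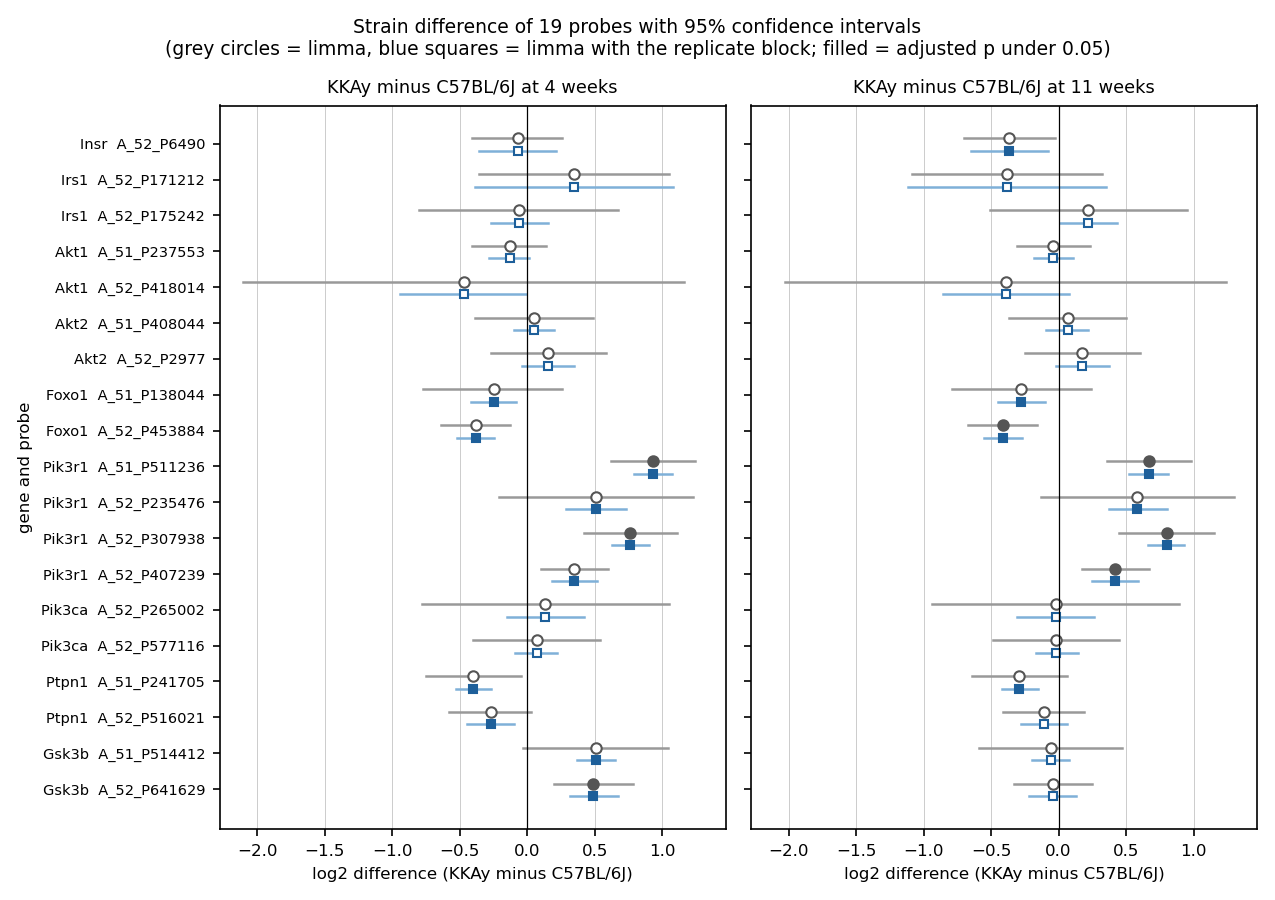
Strain difference (KKAy minus C57BL/6J, log2, x axis) of the 19 probes at 4 weeks (left) and 11 weeks (right), with 95% confidence intervals: grey circles are the fit without a block, blue squares the fit with the replicate number as a block, and filled symbols have an adjusted p under 0.05. All 4 Pik3r1 probes lie above 0 at both ages, the Gsk3b probes lie at 0.49 and 0.51 at 4 weeks but at -0.04 and -0.06 at 11 weeks, and the Foxo1 and Ptpn1 probes lie below 0.

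Insr, the insulin receptor, was read by 1 probe of that name, A_52_P6490 at chr8:3159473-3159532 on the minus strand (mm8, the mouse genome build named in the scanner files). Its log2 signal was -3.81 and -3.89 in C57BL/6J at 4 weeks, -3.74 and -3.74 in C57BL/6J at 11 weeks, -4.08 and -3.75 in KKAy at 4 weeks, and -4.15 and -4.06 in KKAy at 11 weeks. The strains overlapped at 4 weeks, and at 11 weeks both KKAy arrays lay below both C57BL/6J arrays. The difference was -0.07 at 4 weeks (SE 0.14, limma adjusted p = 0.829) and -0.37 at 11 weeks (SE 0.14, 95% interval -0.70 to -0.03, limma adjusted p = 0.118; 0.0417 with the replicate block). The probe was dim, 29.42 to 88.71 signal units over the 8 arrays. A brighter probe nearby, at chr8:3151667-3151726, carries the name D630014A15Rik, which RefSeq lists as an older symbol of Insr, and so fell outside the choice by name. Its strain differences were 0.03 at 4 weeks (SE 0.32, limma adjusted p = 0.978) and -0.17 at 11 weeks (SE 0.32, limma adjusted p = 0.776), and it was not called with the block.

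Irs1, the docking protein next to the receptor, showed no strain difference past the threshold on either of its 2 probes. The brighter one, A_52_P175242 at chr1:82112141-82112200, gave 1.41 and 1.84 in C57BL/6J at 4 weeks, 1.74 and 2.10 in C57BL/6J at 11 weeks, 1.31 and 1.82 in KKAy at 4 weeks, and 1.83 and 2.46 in KKAy at 11 weeks. The strains overlapped at both ages, and replicate 2 was the higher array in every group. The strain difference was -0.06 at 4 weeks (SE 0.30, 95% interval -0.80 to 0.67) and 0.22 at 11 weeks (SE 0.30, 95% interval -0.51 to 0.95). With age, KKAy differed by 0.58 (limma adjusted p = 0.25; 0.0043 with the replicate block) and C57BL/6J by 0.30 (0.695; 0.0478 with the block). The other probe, A_52_P171212, dim at -4.23 to -3.36, gave strain differences of 0.35 and -0.38, neither called with or without the block.

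Pik3r1 was higher in KKAy than in C57BL/6J on each of its 4 probes at both ages, with 3 of the 4 past the threshold at 1 age or both. Its brightest probe, A_51_P511236 at chr13:102784708-102784767 on the minus strand, gave 0.21 and -0.02 in C57BL/6J at 4 weeks, -0.34 and -0.46 in C57BL/6J at 11 weeks, 1.08 and 0.98 in KKAy at 4 weeks, and 0.33 and 0.21 in KKAy at 11 weeks. KKAy arrays were above C57BL/6J arrays of the same age without overlap, and in each strain the 11-week arrays reached no higher than the lower 4-week array. The strain difference was 0.93 at 4 weeks (1.91-fold, SE 0.13, 95% interval 0.62 to 1.24, limma adjusted p = 0.00622) and 0.67 at 11 weeks (1.59-fold, SE 0.13, 95% interval 0.36 to 0.98, limma adjusted p = 0.0159). The 4-week call stood in 18 of 18 alternative settings, not all of which were distinct checks. The 11-week call was lost in 5 of 18: without C57BL/6J 11-week replicate 1 (limma adjusted p = 0.0756), without replicate 2 of that group (0.111), without KKAy 11-week replicate 1 (0.0672), without the dim-probe filter (0.0638) and with only the 4 arrays compared (0.0603).

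The other Pik3r1 probes differed from the brightest one in size. A_52_P307938, whose position chr13:102789708-102790750 covers more of the genome than its own length, gave -3.18 and -3.02 in C57BL/6J at 4 weeks, -3.78 and -3.53 in C57BL/6J at 11 weeks, -2.43 and -2.24 in KKAy at 4 weeks, and -2.92 and -2.78 in KKAy at 11 weeks. Its strain difference was 0.76 at 4 weeks (1.70-fold, SE 0.14, limma adjusted p = 0.0189) and 0.80 at 11 weeks (1.74-fold, SE 0.14, limma adjusted p = 0.0128). The 4-week call on this probe was lost when any of the 4 arrays of that age was left out, and with 3 other settings. Its 11-week call held in 13 of 17 alternative settings, with values down to 0.47. The probe was dim, 49.34 to 169.3 signal units over the 8 arrays. A_52_P407239, at chr13:102786510-102786569, gave -0.77 and -0.71, -1.51 and -1.60, -0.34 and -0.44, and -1.16 and -1.11 in the same order of groups. Its strain difference was 0.35 at 4 weeks (SE 0.10, limma adjusted p = 0.0754; 0.0125 with the replicate block) and 0.42 at 11 weeks (1.34-fold, SE 0.10, limma adjusted p = 0.0338, and past the threshold in 5 of 17 alternative settings). A_52_P235476, nearest the 3′ end at chr13:102781860-102781919, gave -0.21 and -0.62, -0.45 and -0.78, 0.35 and -0.17, and 0.28 and -0.34 in that order. KKAy and C57BL/6J arrays of the same age did not overlap on this probe, though narrowly at 4 weeks, yet replicate 2 lay 0.33 to 0.62 below replicate 1 in every group, and the differences of 0.51 and 0.58 had SEs of 0.29 (limma adjusted p = 0.353 and 0.225; 0.00875 and 0.00427 with the replicate block).

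**Figure D3:**
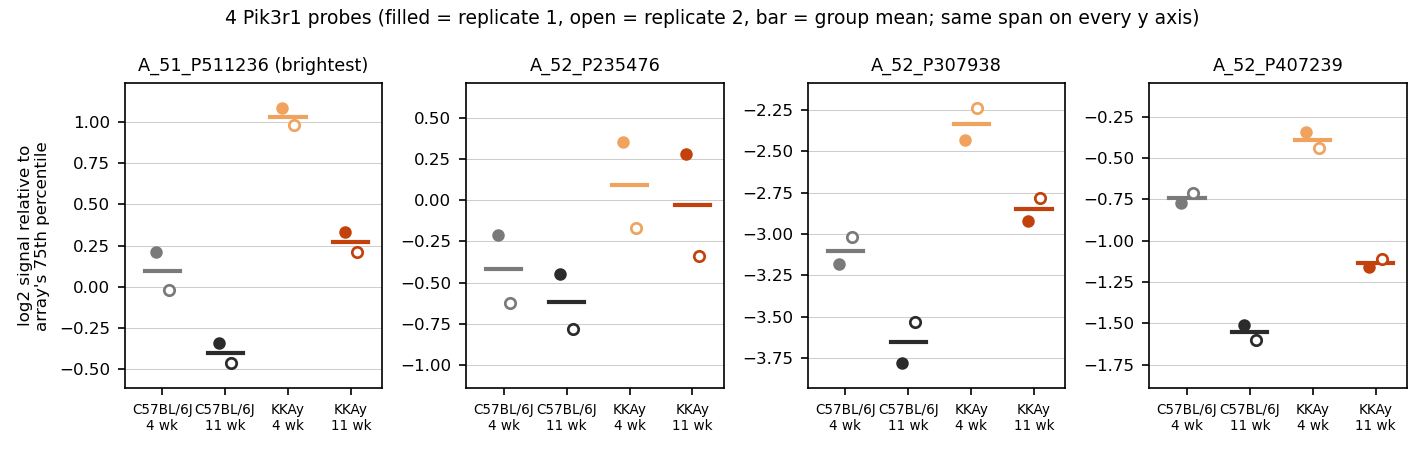
The 4 Pik3r1 probes on the 8 arrays, as log2 signal relative to the array's 75th percentile (y axis, same span in every panel), with filled points for replicate 1, open points for replicate 2 and bars for group means. Each panel shows the KKAy means above the C57BL/6J means of the same age; the 4-week difference is 0.93 on the brightest probe and 0.35 on A_52_P407239.

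With age, Pik3r1 moved down. On A_52_P407239 it fell by 0.82 in C57BL/6J (1.76-fold, SE 0.10, limma adjusted p = 0.00799) and by 0.75 in KKAy (1.68-fold, SE 0.10, limma adjusted p = 0.00688). On the brightest probe it fell by 0.76 in KKAy (1.69-fold, SE 0.13, limma adjusted p = 0.0135), while in C57BL/6J the difference was -0.50 (SE 0.13, limma adjusted p = 0.083; 0.0045 with the replicate block). A_52_P307938 gave -0.55 and -0.52 in C57BL/6J and KKAy (limma adjusted p = 0.0853 and 0.0584; 0.00284 and 0.00175 with the replicate block), and A_52_P235476 gave -0.20 and -0.12, not called. The falls on A_52_P407239 were called in 13 and 15 of 17 alternative settings. The fall of the brightest probe in KKAy was lost in 5 of 18: without KKAy 4-week replicate 1 (limma adjusted p = 0.0782), without replicate 2 of that group (0.0597), without KKAy 11-week replicate 2 (0.0608), without the dim-probe filter (0.0575) and with only the 4 arrays compared (0.0901). The 4-week groups were on slide 1 and the 11-week groups on slide 2, so for every change with age, slide and age cannot be told apart. The strain difference itself did not differ between the ages past the threshold on any Pik3r1 probe, with values of -0.26 to 0.08 (brightest probe -0.26, SE 0.18, limma adjusted p = 0.568; 0.0647 with the replicate block). KKAy arrays took positions 3 and 4 of each slide and C57BL/6J arrays positions 1 and 2, so strain and position cannot be told apart.

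RefSeq places starts of Pik3r1 transcripts at more than 1 place, and the 250 bases before them are shown because Pik3r1 is the gene with the clearest strain difference and its starts differ in base composition. Both windows lie on the minus strand and are written 5′ to 3′ (GRCm38.p6), with the start site just after the last base and capitals marking a CCAAT box, here in its reverse form ATTGG.
Pik3r1, chr13:101768218-101768467: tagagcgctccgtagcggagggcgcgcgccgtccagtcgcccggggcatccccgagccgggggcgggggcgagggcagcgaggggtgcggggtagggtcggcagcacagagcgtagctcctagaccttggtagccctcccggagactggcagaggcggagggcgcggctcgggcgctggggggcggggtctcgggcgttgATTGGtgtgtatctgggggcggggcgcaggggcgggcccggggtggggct
Pik3r1, chr13:101692631-101692880: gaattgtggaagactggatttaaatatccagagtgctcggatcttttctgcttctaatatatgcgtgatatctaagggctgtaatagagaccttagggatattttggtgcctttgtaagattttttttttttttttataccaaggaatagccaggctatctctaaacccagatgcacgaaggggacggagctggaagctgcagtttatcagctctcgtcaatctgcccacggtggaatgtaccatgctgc
The first window was 76.4% GC and held 1 CCAAT box, at -50 from the start. The other was 42.4% GC and held none. The median over 32851 RefSeq windows of this length was 52.4% GC, and 33.8% of them held a CCAAT box. The motifs searched, on both strands, were CCAAT, the Foxo binding element GTAAACA (in 3.17% of all windows), the insulin response element core CAAAACA (5.56%), the cAMP response element TGACGTCA (1.55%) and the E-box CACGTG (6.02%); GTAAACA and CAAAACA share their last letters, but no stretch of bases can match both. A match is only a match of letters, and the arrays do not tell which start the transcripts came from.

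Among the 9 genes found in the promoter table, Insr being absent and Irs2 present, 14 windows were searched. The insulin response element core matched in Irs1 at -111 and -32 and in Irs2 at -37. The E-box matched in Irs1 at -115 and in Irs2 at -44. The Foxo binding element matched in 1 of the Akt1 windows, chr12:112674885-112675134, at -161. No window of Akt2, Pik3ca or Ptpn1 held any of the 5 motifs.

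Pik3ca, the catalytic p110-alpha subunit that the Pik3r1 product binds, did not follow it. Its brightest probe, A_52_P577116 at chr3:32655899-32655958, gave 0.55 and 0.75 in C57BL/6J at 4 weeks, 0.77 and 1.06 in C57BL/6J at 11 weeks, 0.57 and 0.86 in KKAy at 4 weeks, and 0.71 and 1.08 in KKAy at 11 weeks. The strains overlapped at both ages. The strain difference was 0.07 at 4 weeks (SE 0.19, 95% interval -0.40 to 0.54) and -0.02 at 11 weeks (SE 0.19, 95% interval -0.49 to 0.45). The other probe, A_52_P265002, gave 0.13 and -0.02 with SEs of 0.37. The difference with age in C57BL/6J on the brightest probe was 0.26 (limma adjusted p = 0.555; 0.0296 with the replicate block).

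The Akt kinases, which carry the signal from PI3-kinase to its targets, showed no difference past the threshold on any of their 4 probes in any comparison, with or without the replicate block. Akt1, read at chr12:113101676-113101735 by the 10 spots of A_51_P237553, gave 3.57 and 3.6 in C57BL/6J at 4 weeks, 3.48 and 3.55 in C57BL/6J at 11 weeks, 3.38 and 3.53 in KKAy at 4 weeks, and 3.41 and 3.55 in KKAy at 11 weeks. The 8 values lay within a narrow band, and the strain differences were -0.13 (SE 0.11, 95% interval -0.41 to 0.14) and -0.04 (SE 0.11, 95% interval -0.31 to 0.23). Akt2, the form that dominates insulin action on hepatic glucose metabolism, gave 2.28 and 2.46, 2.42 and 2.54, 2.35 and 2.70, and 2.50 and 2.80 on A_52_P2977 (chr7:27347600-27347659) in the same order of groups. Its strain differences were 0.15 (SE 0.17, 95% interval -0.27 to 0.58) and 0.17 (SE 0.17, 95% interval -0.25 to 0.60). The other Akt1 probe, A_52_P418014, was less precise, with differences of -0.47 and -0.39 and SEs of 0.67, since replicate 2 lay 0.71 to 1.36 below replicate 1 in the 4 groups.

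Gsk3b, the kinase that phosphorylates and restrains glycogen synthase, was higher in KKAy at 4 weeks on 1 of its 2 probes, and on neither at 11 weeks. Probe A_52_P641629, at chr16:38162670-38162729 on the plus strand, gave -1.99 and -2.19 in C57BL/6J at 4 weeks, -1.92 and -1.97 in C57BL/6J at 11 weeks, -1.51 and -1.68 in KKAy at 4 weeks, and -1.98 and -1.99 in KKAy at 11 weeks. The 2 young KKAy arrays were the highest of the 8. The strain difference was 0.49 at 4 weeks (1.41-fold, SE 0.12, 95% interval 0.20 to 0.78, limma adjusted p = 0.0444) and -0.04 at 11 weeks (SE 0.12, limma adjusted p = 0.855). The 4-week call was lost when any 1 of the 8 arrays was left out, with limma adjusted p between 0.0695 and 0.213, and without the dim-probe filter (0.159) and with only the 4 arrays compared (0.168). The brightest probe, A_51_P514412 at chr16:38107140-38110785, gave -1.07 and -1.37, -1.04 and -1.31, -0.53 and -0.90, and -1.04 and -1.43 in the same order. It showed the same pattern with a wider spread, with strain differences of 0.51 at 4 weeks (SE 0.22, limma adjusted p = 0.208; 0.00238 with the replicate block) and -0.06 at 11 weeks (SE 0.22, limma adjusted p = 0.884).

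The difference between those strain differences, 11 minus 4 weeks, was -0.57 on the brightest Gsk3b probe (SE 0.31, 95% interval -1.32 to 0.18, limma adjusted p = 0.448; 0.00936 with the replicate block) and -0.53 on A_52_P641629 (SE 0.17, 95% interval -0.95 to -0.12, limma adjusted p = 0.182; 0.0182 with the replicate block). With age, Gsk3b differed in KKAy by -0.52 and -0.39 on these probes (limma adjusted p = 0.163 and 0.076; 0.00193 and 0.00816 with the replicate block) and in C57BL/6J by 0.05 and 0.14, not called.

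The 250 bases before the Gsk3b start held 3 CCAAT boxes, at -215, -132 and -18, and are shown beside the Foxo1 window, which also held 3, at -162, -55 and -23. Both lie on the plus strand, 5′ to 3′ (GRCm38.p6), with CCAAT or its reverse form ATTGG in capitals.
Gsk3b, chr16:38088751-38089000: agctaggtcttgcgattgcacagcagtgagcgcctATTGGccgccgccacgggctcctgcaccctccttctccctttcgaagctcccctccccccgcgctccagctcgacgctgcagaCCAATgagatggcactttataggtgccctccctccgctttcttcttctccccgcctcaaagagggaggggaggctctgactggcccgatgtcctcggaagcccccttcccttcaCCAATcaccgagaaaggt
Foxo1, chr3:52268087-52268336: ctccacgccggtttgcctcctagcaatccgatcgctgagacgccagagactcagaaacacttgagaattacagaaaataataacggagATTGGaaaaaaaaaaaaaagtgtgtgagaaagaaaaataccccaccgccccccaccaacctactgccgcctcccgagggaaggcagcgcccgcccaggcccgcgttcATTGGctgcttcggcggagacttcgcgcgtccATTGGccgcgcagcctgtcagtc
The Gsk3b window was 62% GC and the Foxo1 window 56% GC, and neither held any of the other 4 motifs.

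Foxo1, the transcription factor that insulin holds out of the nucleus, was lower in KKAy on 1 of its 2 probes at 11 weeks. A_52_P453884, at chr3:52437296-52437355, gave 2.08 and 2.22 in C57BL/6J at 4 weeks, 1.98 and 2.08 in C57BL/6J at 11 weeks, 1.74 and 1.79 in KKAy at 4 weeks, and 1.61 and 1.63 in KKAy at 11 weeks. All KKAy arrays were below all C57BL/6J arrays. The strain difference was -0.38 at 4 weeks (SE 0.10, limma adjusted p = 0.0648; 0.00522 with the replicate block) and -0.41 at 11 weeks (1.33-fold lower, SE 0.10, 95% interval -0.67 to -0.16, limma adjusted p = 0.0409). The 11-week call was lost when any 1 of the 8 arrays was left out (limma adjusted p between 0.0681 and 0.217), without the dim-probe filter (0.158) and with only the 4 arrays compared (0.14). It was also lost when arrays were scaled to the median or to the spike-in controls, where the difference reached -0.28 at its smallest, and at 4 weeks the spike-in scaling left -0.03. The brightest probe, A_51_P138044 at chr3:52434190-52434249, gave 3 and 2.69, 2.81 and 2.60, 2.76 and 2.43, and 2.64 and 2.22 in the same order. Here the strains overlapped, with differences of -0.25 (SE 0.21, limma adjusted p = 0.552; 0.0355 with the replicate block) and -0.28 (SE 0.21, limma adjusted p = 0.427; 0.0213 with the replicate block), and with spike-in scaling the 4-week difference turned to 0.10.

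Ptpn1, the phosphatase that switches the receptor off, had lower values in KKAy that passed the threshold in the blocked fit. Its brightest probe, A_51_P241705 at chr2:167668001-167668060, gave 3.22 and 3.37 in C57BL/6J at 4 weeks, 3.08 and 3.23 in C57BL/6J at 11 weeks, 2.79 and 3 in KKAy at 4 weeks, and 2.74 and 2.98 in KKAy at 11 weeks. KKAy arrays lay below C57BL/6J arrays of the same age. The difference was -0.40 at 4 weeks (SE 0.14, 95% interval -0.75 to -0.05, limma adjusted p = 0.14; 0.00417 with the replicate block) and -0.29 at 11 weeks (SE 0.14, 95% interval -0.64 to 0.06, limma adjusted p = 0.223; 0.00865 with the replicate block). The other probe, A_52_P516021, gave -0.27 (limma adjusted p = 0.229; 0.0279 with the replicate block) and -0.11 (0.598; 0.219 with the block). With spike-in scaling the 4-week differences were -0.04 and 0.08 on these probes, and Ptpn1 was not called. Ptpn1 did not differ with age past the threshold on either probe.

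Most probes of these genes shifted the same way from replicate 1 to replicate 2 in all 4 groups. For 16 of 19 probes (84.2%) replicate 2 lay on the same side of replicate 1 in all 4 groups, beside 70.2% of 25303 kept probes. The direction depended on the probe: Irs1 A_52_P175242 was 0.36 to 0.63 higher in replicate 2, whereas Akt1 A_52_P418014 was lower. In 75% of the 8 genes with more than 1 probe, the probe nearest the 3′ end had the higher value of replicate 2 minus replicate 1, with a median gap of 0.35, beside 57.3% and a median of 0.06 over 5667 genes. Replicate 1 arrays took positions 1 and 3 of each slide and replicate 2 arrays positions 2 and 4, so replicate number and position cannot be told apart. The labels do not say what the replicate number marks, and its part in the results was not tested beyond the blocked fit.

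**Figure D4:**
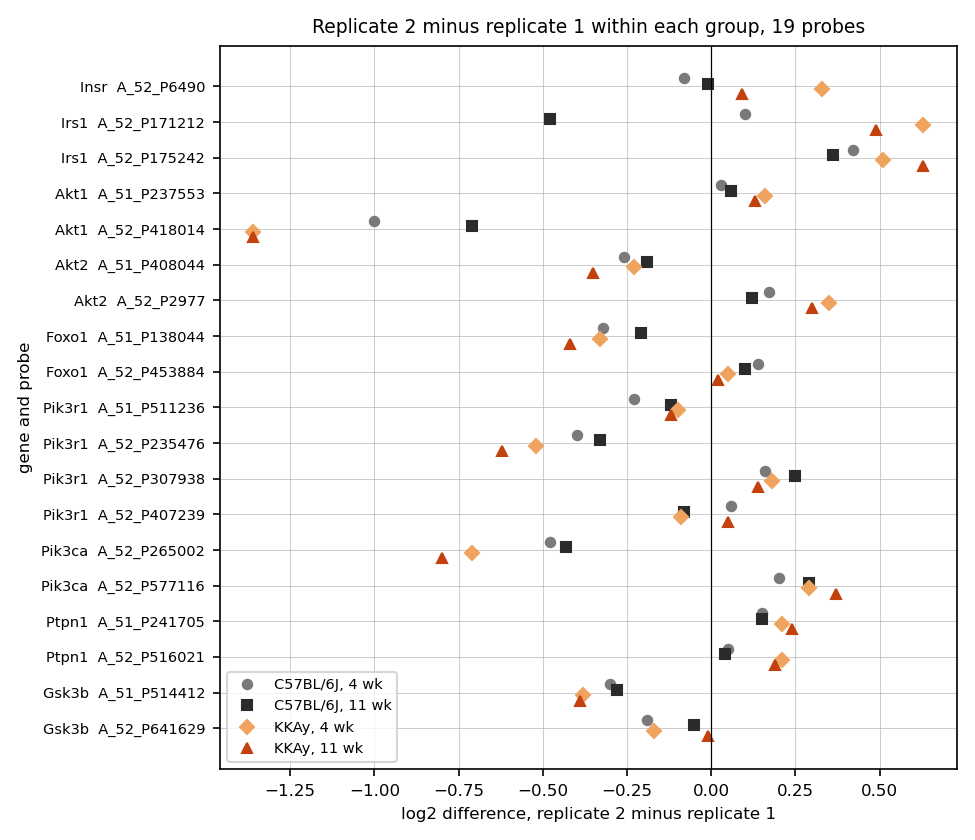
Replicate 2 minus replicate 1 (log2, x axis) for the 19 probes (y axis) in each of the 4 groups, 1 symbol per group. Probes such as Irs1 A_52_P175242 (0.36 to 0.63) and Akt1 A_52_P418014 lie on opposite sides of 0, and the 4 groups stay together for most probes.

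With age, Pik3r1 was the gene of the 9 that passed without the block. In C57BL/6J 0 of 9 genes passed in limma on the brightest probe, where 7.67% of all genes passed, 1.84% higher and 5.83% lower (unadjusted p under 0.05: 1 gene; blocked fit: 2 higher with age and 1 lower, where 33.8% of all genes passed). In KKAy 1 gene, Pik3r1, was lower at 11 weeks and 0 were higher, where 17.9% of all genes passed, 7.75% higher and 10.2% lower (blocked fit: 1 higher and 2 lower, where 52.9% passed). For the difference of the strain differences 0 of 9 passed, where 3.29% of all genes passed, 1.76% in the positive and 1.53% in the negative direction (unadjusted p under 0.05: 0 genes; blocked fit: 1 lower, Gsk3b, where 29.6% passed). The median change with age was 0.05 in C57BL/6J and -0.03 in KKAy, beside 0.07 and 0.03 over all genes.

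Beyond these genes, 93 further genes of the pathway were measured, in 5 lists by role, 90 of them well above background on all 8 arrays. At 4 weeks 7 were higher and 11 lower in KKAy, 19.4% of the 93 beside 15% of all genes, and at 11 weeks 12 were higher and 9 lower, 22.6% beside 21.2%. Their median difference was 0.07 and -0.01 at the 2 ages. With the replicate block 30 were higher and 23 lower at 4 weeks, where 43% of all genes passed. At 11 weeks the block gave 27 and 27, where 54.5% passed. With age 0 rose and 4 fell in C57BL/6J (4.3%, beside 7.67% of all genes), and 7 rose and 9 fell in KKAy (17.2%, beside 17.9%). The blocked age counts were 20 higher and 15 lower in C57BL/6J, where 33.8% of all genes passed, and 23 and 27 in KKAy, where 52.9% passed. Counts of single lists below are to be read beside these shares of all genes. Every gene called without the block was also called with it, and no called gene changed sign in any alternative setting. In the strain comparisons calls were most frequent, as a share, among the transcripts that insulin and Foxo1 regulate, as shown in the plot of pathway lists. Differences between lists were not tested. The lists were chosen with earlier results of these data known, and the part of that choice in these shares was not tested.

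**Figure D5:**
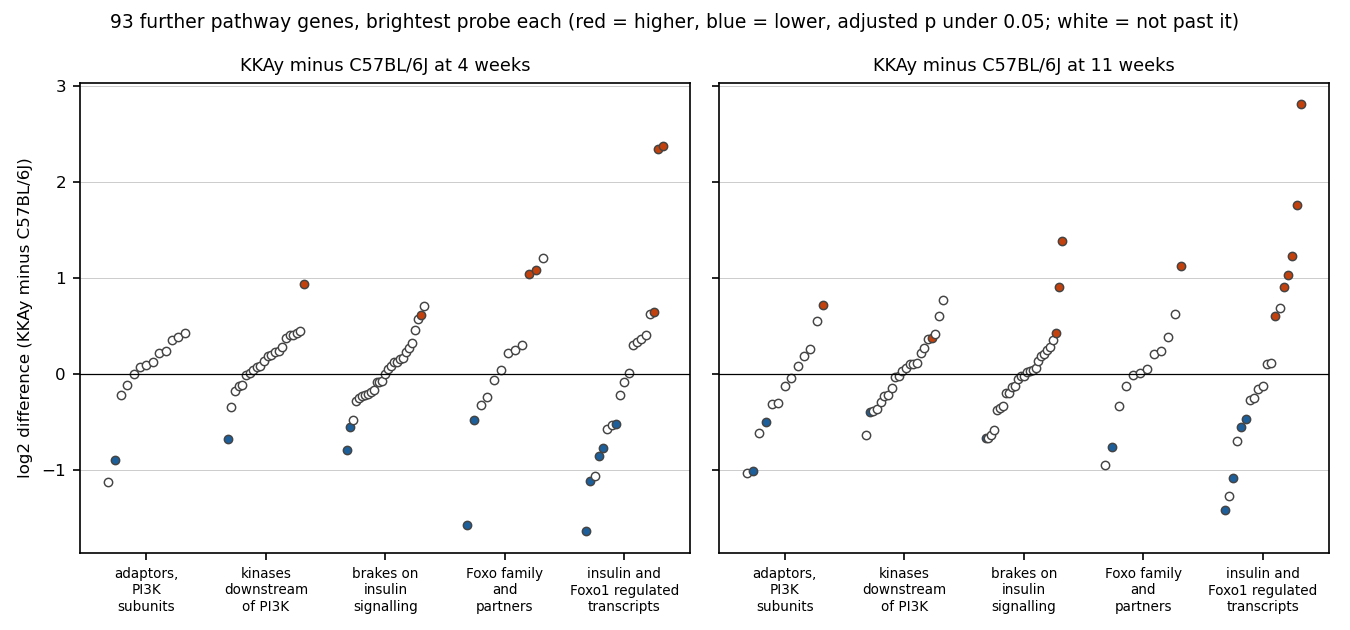
Strain difference (KKAy minus C57BL/6J, log2, y axis) of 93 further pathway genes at 4 weeks (left) and 11 weeks (right), grouped by role on the x axis, 1 point per gene on its brightest probe: red is higher and blue lower at an adjusted p under 0.05, white did not pass. In the group of regulated transcripts, 8 of 19 genes at 4 weeks and 10 of 19 at 11 weeks are coloured; 1 red point at each age is Pnpla3, not well above background in C57BL/6J at 4 weeks or in either strain at 11 weeks, and is no measured fold.

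Among adaptors and PI3-kinase subunits, 13 of 15 listed genes were measured. At 4 weeks 0 were higher and 1 lower in KKAy (7.69%), and at 11 weeks 1 was higher and 2 lower (23.1%). Pik3r5, the regulatory subunit of the PI3-kinase found mainly in leukocytes, was lower by 0.90 at 4 weeks (1.87-fold, SE 0.11, limma adjusted p = 0.00377) and by 1.01 at 11 weeks (2.01-fold, SE 0.11, limma adjusted p = 0.00199). It fell with age by 0.98 in C57BL/6J and 1.1 in KKAy (limma adjusted p = 0.00521 and 0.00237), with group means of -1.65, -2.64, -2.55 and -3.64 in C57BL/6J at 4 and 11 weeks and KKAy at 4 and 11 weeks. The summed Kupffer cell and macrophage markers given above were likewise highest in young C57BL/6J and lowest in older KKAy, and their part in the Pik3r5 difference was not tested. Pik3r3, another regulatory subunit, was higher in KKAy at 11 weeks by 0.72 (1.65-fold, SE 0.16, limma adjusted p = 0.0245) and rose by 0.86 with age in KKAy (limma adjusted p = 0.0171). Igf1r, the receptor for insulin-like growth factor, was lower in KKAy at 11 weeks by 0.50 (SE 0.12, limma adjusted p = 0.0363; its other probe -0.19, not called), called in 4 of 18 alternative settings, and fell by 1.05 with age in KKAy (limma adjusted p = 0.00441). In this list 0 genes rose and 1 fell with age in C57BL/6J, and 1 rose and 2 fell in KKAy. With the replicate block, 3 adaptors and subunits were higher and 2 lower in KKAy at 4 weeks and 4 and 6 at 11 weeks, and with age 3 were higher and 2 lower in C57BL/6J and 3 and 5 in KKAy.

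Of 22 kinases and regulators downstream of PI3-kinase, 1 was higher and 1 lower in KKAy at each age (9.09%). Mtor, the kinase of the growth-controlling mTOR complexes, was higher at 4 weeks by 0.94 on its brightest probe (1.92-fold, SE 0.12, limma adjusted p = 0.0048), while its other probe gave 0.36, not called. Mtor then fell by 0.56 with age in KKAy (limma adjusted p = 0.0279), called in 8 of 18 alternative settings, and its other probe gave -0.74 (limma adjusted p = 0.155). Sgk1, a kinase related to Akt, was lower in KKAy by 0.68 at 4 weeks (1.60-fold, SE 0.10, limma adjusted p = 0.00934) and by 0.40 at 11 weeks (SE 0.10, limma adjusted p = 0.0415, called in 5 of 18 alternative settings). It fell with age by 0.91 in C57BL/6J (limma adjusted p = 0.00609) and by 0.64 in KKAy (limma adjusted p = 0.0122). Tsc1, a brake on mTOR complex 1, was higher at 11 weeks by 0.37 on its brightest probe (limma adjusted p = 0.0461, called in 6 of 18 alternative settings) but lower by 0.72 and 0.81 on 2 other probes that also passed, so its direction depended on the probe. With age 0 of this list rose and 1 fell in C57BL/6J, and 0 rose and 2 fell in KKAy. The replicate block gave 7 higher and 2 lower in KKAy at 4 weeks and 6 and 4 at 11 weeks, and 8 higher and 2 lower with age in C57BL/6J and 4 and 5 in KKAy.

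Of 27 brakes on insulin signalling, 1 was higher and 2 lower in KKAy at 4 weeks (11.1%), and 3 were higher and 1 lower at 11 weeks (14.8%). Ptprf, a receptor tyrosine phosphatase, was higher at 11 weeks by 1.39 (2.62-fold, SE 0.26, limma adjusted p = 0.0154), and its other probes gave 0.75 and 1.45, both called. Socs3, a cytokine-induced inhibitor that binds the insulin receptor, was higher at 11 weeks by 0.91 (1.88-fold, SE 0.22, limma adjusted p = 0.0354), called in 11 of 18 alternative settings. Grb14, an adaptor that inhibits the receptor kinase, was lower at 11 weeks by 0.67 (1.59-fold, SE 0.10, limma adjusted p = 0.00795).

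At 4 weeks the brakes that passed were Grb10, a relative of Grb14, higher by 0.61 (SE 0.11, limma adjusted p = 0.0171), Trib1, a pseudokinase, lower by 0.55 (SE 0.14, limma adjusted p = 0.0472) and Socs1, lower by 0.79 (SE 0.20, limma adjusted p = 0.0487). Their calls held in 10, 6 and 7 of 18 alternative settings. Grb10 fell with age by 1.08 in C57BL/6J (limma adjusted p = 0.00462) and by 1.44 in KKAy (limma adjusted p = 0.00114). Enpp1 and Trib2 also fell with age in KKAy, by 1.40 and 0.65 (limma adjusted p = 0.0303 and 0.0246), although the other Enpp1 probe gave -0.32 and the other Trib2 probe -0.53, neither called. The Trib2 call held in 7 of 18 alternative settings, and with normexp its value was -0.26. With age 0 brakes rose and 1 fell in C57BL/6J, and 0 rose and 3 fell in KKAy. In the blocked fit 7 brakes were higher and 7 lower in KKAy at 4 weeks, 6 and 7 at 11 weeks, 5 and 5 with age in C57BL/6J and 8 and 8 with age in KKAy.

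The Foxo family and partners of Foxo1 comprised 12 genes, of which 2 were higher and 2 lower in KKAy at 4 weeks (33.3%), and 1 was higher and 1 lower at 11 weeks (16.7%). Ppargc1a, the coactivator that works with Foxo1 on genes of glucose production, was lower at 4 weeks by 1.57 (2.97-fold, SE 0.32, limma adjusted p = 0.0246), and its other probe gave -1.56, also called; the call stood in 11 of 18 alternative settings. Its group mean was 1.96 in C57BL/6J at 4 weeks, 0.40 in C57BL/6J at 11 weeks, 0.39 in KKAy at 4 weeks and -0.56 in KKAy at 11 weeks, and it fell by 1.56 with age in C57BL/6J (limma adjusted p = 0.0426). Foxo3, a relative of Foxo1, was higher by 1.08 at 4 weeks (SE 0.16, limma adjusted p = 0.00928) and by 1.13 at 11 weeks (SE 0.16, limma adjusted p = 0.00652), from a dim probe that was well above background on 1 of 2 arrays of young C57BL/6J. The Foxo3 calls held in 13 and 16 of 17 alternative settings, with values down to 0.53 and 0.44. Foxo6, also dim, was higher at 4 weeks by 1.04 (limma adjusted p = 0.00983) and fell by 0.68 with age in KKAy (limma adjusted p = 0.0394, called in 9 of 18 alternative settings). With normexp background correction these values were 0.52 and -0.01, and neither was called. Ncor1, a corepressor, was lower by 0.48 at 4 weeks (limma adjusted p = 0.0432) and by 0.76 at 11 weeks (limma adjusted p = 0.0074), called in 4 and 15 of 18 alternative settings, although 1 of its other probes gave 0.11 at 4 weeks. Foxo4, on a dim probe, rose with age in KKAy by 1.65 (3.14-fold, limma adjusted p = 0.0128). The call held in 15 of 18 alternative settings, with values down to 0.82. Its group means were -4.83 and -3.58 in C57BL/6J at 4 and 11 weeks and -4.6 and -2.95 in KKAy. The mean was thus higher at 11 weeks in C57BL/6J too, not called there without the block. With age 0 of this list rose and 1 fell in C57BL/6J, and 1 rose and 1 fell in KKAy. The blocked fit gave 5 higher and 3 lower in KKAy at 4 weeks, 4 and 2 at 11 weeks, 1 and 1 with age in C57BL/6J and 1 and 3 with age in KKAy.

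Of 20 transcripts that insulin or Foxo1 are known to regulate, 19 were measured, and 3 were higher and 5 lower in KKAy at 4 weeks (42.1%) and 6 were higher and 4 lower at 11 weeks (52.6%). The blocked fit gave 8 higher and 9 lower at 4 weeks and 7 and 8 at 11 weeks. Pnpla3, a lipase-family gene induced by insulin through Srebf1, did not rise well above background on any C57BL/6J array; at 4 weeks its KKAy signal was at least 2.36-fold that of C57BL/6J. It entered the fit only through young KKAy, and at 11 weeks it was not well above background in KKAy either, yet it is counted above as higher at both ages; without it, 2 genes were higher at 4 weeks and 5 at 11 weeks. Klf15, a factor in amino acid breakdown, and Ccng2, a Foxo target, were lower at 4 weeks by 0.85 and 0.77 (limma adjusted p = 0.00475 and 0.00505). Further genes that passed at 4 weeks, outside the rule for naming, were G6pc, Bcl6 and Pdk4, lower, and Gadd45a, higher. Ccng2 and G6pc were also lower at 11 weeks, by 0.55 and 0.47 (limma adjusted p = 0.0129 and 0.0293). These 11-week calls held in 12 and 9 of 18 alternative settings.

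At 11 weeks Srebf1, the lipogenic factor that insulin induces, was higher by 1.23 (2.35-fold, SE 0.11, limma adjusted p = 0.00109), and Gadd45a by 0.91 (SE 0.15, limma adjusted p = 0.00947). Pnpla2, the main triglyceride lipase, which Foxo1 induces, was lower by 1.42 (2.68-fold, SE 0.093, limma adjusted p = 0.000433), and its other probe gave -1.43, also called. In this list 0 genes passed with age in C57BL/6J by limma (unadjusted p under 0.05: 4 genes), and 5 rose and 1 fell in KKAy. With the block 3 were higher and 5 lower with age in C57BL/6J, and 7 and 6 in KKAy. Pnpla2 fell by 1.47 with age in KKAy (limma adjusted p = 0.000654), while Srebf1 and Klf15 rose by 0.82 and 0.76 (limma adjusted p = 0.00633 and 0.0079). The difference of the strain differences passed for 3 genes of this list and for 0 of the other 4 lists (unadjusted p under 0.05: 2, 2, 7 and 1 genes). With the replicate block it passed for 11 genes of this list, 8 positive and 3 negative, and for 5, 7, 10 and 2 genes of the others. Of all genes, 3.29% passed without the block and 29.6% with it. The 3 genes were Pnpla2 with -1.43 (SE 0.13, limma adjusted p = 0.00834; its other probe -1.35, adjusted p = 0.267), Klf15 with 0.95 (SE 0.15, limma adjusted p = 0.0369) and Srebf1 with 0.87 (SE 0.15, limma adjusted p = 0.0459).

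Genes most like single members were sought by Pearson correlation of log2 values over the 8 arrays, among 10899 genes well above background on all of them, as a description with no test. All points share the same 8 arrays, and replicate and strain shifts enter each correlation. Irs1 was followed most closely by Mif4gd (0.996), Rnf7 and Rusc1 (0.995 each), and 192 genes passed 0.95. Ptpn1 was followed by Vamp5 (0.997), Rnf213 (0.992) and Mefv (0.988), with 56 genes past 0.95. Foxo1 was followed by Lacc1 and Dennd6b (0.990 each) and Ppp1r9b (0.988), with 44 genes past 0.95. For Akt2 the closest were Dctn2 (0.991), Agap3 (0.989) and Setd6 (0.987), with 185 genes past 0.95. Of the members compared, Insr had the fewest close genes, Sh3rf1 (0.957), Cldn7 (0.946) and Rhpn2 (0.935), and only the first of these passed 0.95. Its dim probe also spanned the least over the arrays, 0.42 against 0.52 for Akt2 and up to 1.15 for Irs1. The part of that narrow span in its correlations was not tested.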

How the data were processed

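RNA of 8 liver samples in 4 groups (2 slides, 4 arrays each) was measured on single-colour Agilent arrays; groups, ages and replicate numbers came from the labels. Agilent Feature Extraction 9.5.1.1 gave the spot intensity per the file headers, with annotation on mm8. The log2 value table the authors deposited equalled the log2 processed intensity minus 1 constant per array (within 0.01 for 100% of probes; column medians -3.96 to -3.67, no centring across arrays found); no source used here names the step behind that shift. Columns of no sample numbered 0.

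Control spots and flagged spots (59 to 89 an array) were left out, none was saturated (0), spots of a probe were averaged, and each array's 75th percentile was subtracted from log2 intensity. A probe stayed in the fit if 1 or more groups had it well above background on their 2 arrays, and a gene was read by its brightest probe (17051 genes). Probes were named through RefSeq (GRCm38.p6) by accession (24375), symbol (6301) or older symbol (2426), and 8072 kept the name in the files; Mtor, Sgk1, Foxo3 and Foxo4 stand there as Frap1, Sgk, Foxo3a and Mllt7.

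Group means were fitted over all 8 arrays with limma 3.58.1 in R 4.3.3 (4 residual and 1.94 prior degrees of freedom), with Benjamini-Hochberg adjustment over all kept probes at 0.05. A confidence interval is at 95% for a single probe. Where a group was not above background, "at least" folds set the other group's mean against the lowest signal well above background. The number of arrays limits the precision. The procedure was run on simulated data with planted changes larger than every strain or age difference of the members. That run cannot show how often changes of the members' size are found. The replicate numbers were taken to pair the arrays because deviations from the group means correlated between all 6 pairs of groups (0.558 to 0.681). The labels do not say what the number marks. The blocked result is printed where it changes a member's call or a gene count of the members and lists. Counts by probe and marker calls are given without the block.

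Alternatives were another background correction (normexp, offset 50), quantile, median and spike-in scaling (7 spike-in probes), the deposited values, other dim-probe filters, 1 probe per gene, only the arrays compared, and each array left out. Leaving out either array of a group outside a comparison gave the same fit for that comparison. The deposited values differed from the main ones by little more than a constant per array. Counts of alternative settings are thus not counts of distinct checks. Named genes were all member probes, up to 4 called genes per list and comparison with the smallest adjusted p, and the 3 closest genes for some members; G6pc, Bcl6 and Pdk4 were named after their values were seen. Some called list genes are counted but not reported here by name. The members, lists and rules were chosen with earlier results of these data known. Promoter windows were cut to the 250 bases before each RefSeq start; figures used Python 3.11.15, pandas 2.3.3 and matplotlib 3.10.9.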

Additional observations from a re-analysis of the deposited data

Results flagged for a closer look

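The strain difference of Gsk3b changed between the ages by -0.57 on probe A_51_P514412 and by -0.53 on probe A_52_P641629, in limma with the replicate number as a block only (adjusted p = 0.00936 and 0.0182, against 0.448 and 0.182 without it). In KKAy minus C57BL/6J, both probes went from near 0.50 at 4 weeks to near 0 at 11 weeks (0.51 to -0.06, and 0.49 to -0.04). The change was negative in 17 of 17 and in 16 of 16 alternative settings for these probes, and called in the blocked fit alone, 1 setting each. The 2 ages were on different slides, so a change between them and a slide effect that differs with position cannot be told apart.

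The strain difference also changed between the ages for 3 transcripts that insulin or Foxo1 regulate: Pnpla2 (-1.43, limma adjusted p = 0.00834; -1.35 on its other probe, adjusted p = 0.267), Klf15 (0.95, limma adjusted p = 0.0369; 1.13 on its other probe, also called) and Srebf1 (0.87, limma adjusted p = 0.0459). Pnpla2 was called in 11 of 17 alternative settings, and Klf15 and Srebf1 in 7 of 17 each.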

How the results depend on the processing

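No member or pathway gene result changed direction while called. With the replicate number as a block, probes called rose from 3673 to 10649 (strain, 4 weeks), 5336 to 13639 (strain, 11 weeks), 1764 to 8040 (age, C57BL/6J), 4339 to 13056 (age, KKAy) and 735 to 7126 (difference of strain differences), and member genes called were 4, 4, 3, 3 and 1 against 1, 1, 0, 1 and 0. Without the dim-probe filter probes called were 2104, 2982, 861, 1852 and 120 in the same order; with only the arrays compared 1978 and 2882 for strain and 757 for age in KKAy; with normexp 3383 at 11 weeks, 808 and 2538 for age and 414 for the difference of differences, where spike-in scaling gave 449. With only the arrays compared, fewer arrays set the spread; for the other settings the cause was not tested. Quantile normalization called 2 member genes at each age; without the filter, or with only the arrays compared, 0 were called at 11 weeks and 0 with age in KKAy. Leaving out each array gave 1771 to 3636, 2031 to 4446, 450 to 1629, 1689 to 3067 and 69 to 301 probes, and 1 to 1, 0 to 1, 0 to 0, 0 to 1 and 0 to 0 member genes.

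Scaling moved directions of all probes together. With spike-in scaling the share of calls that were higher in KKAy was 74% against 40.6% at 4 weeks (median of all probes 0.36) and 56.9% against 43.9% at 11 weeks (0.10); it was 18.4% against 44% with age in KKAy (-0.21) and 34.3% against 53.3% for the difference of differences (-0.23). Median scaling gave 51.5% at 4 weeks, 45.4% against 24.4% with age in C57BL/6J, and 58.5% with age in KKAy. The Pik3r1 probes stayed higher in KKAy under every scaling, with 4-week differences of 0.71 to 1.29 with spike-in scaling. Over single member probes, 1417 alternative values kept their direction and side of the threshold. A further 136 changed sign with neither value called, 27 became called and 61 lost the call. For called pathway genes 748 alternative values kept the call and 361 lost it.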
